A study of Mus musculus with 5 samples.

Results

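The contacts of the Pik3r1 promoter region were compared between mouse double-positive thymocytes and mouse skeletal muscle by 4C-seq, which cuts crosslinked chromatin, ligates it and sequences the fragments joined to a chosen bait. The comparison takes in all 5 libraries of the series, 1 from thymocytes and 4 from muscle taken as a single group. The thymocyte library came from wild-type C57/Bl6 mice aged 4 weeks, whose thymus cells were sorted for CD4 and CD8 by FACS. The muscle libraries came from nuclei of skeletal muscle of C57/Bl6 mice aged 10 to 12 weeks, 2 of wild-type (WT) and 2 of GRko animals. GRko is given as a KO genotype in the labels and is read here, from what is known of the study, as a knockout of the glucocorticoid receptor. The sources used here do not give how that knockout is driven, how many animals went into a library, or whether the replicates are separate animals. Tissue, age and the preparation of cells or nuclei all differ between thymocytes and muscle and cannot be told apart. The counts are of DNA contacts, so neither cell type could be checked against marker genes.

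The product of Pik3r1 is p85α, a regulatory subunit of the lipid kinase PI3K, which relays signals from the insulin receptor in muscle and from antigen and costimulatory receptors in T cells. In 4C-seq the chance of ligation falls steeply with distance along the chromosome, and on top of that fall a promoter meets some stretches more often than others. Chromosomes fold into domains, and stretches rich in active genes tend to lie together, apart from gene-poor stretches. Double-positive thymocytes are the immature T cells that rearrange and test their antigen receptor.

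The bait lay at position 101766365 of chromosome 13 (mm10), 1852 bp inside the higher-coordinate end of Pik3r1 (chr13:101680761-101768217). Pik3r1 is transcribed from high to low coordinates, so its own body and the genes beyond it lie on the lower-coordinate side, and the region upstream of the bait lies on the higher-coordinate side. All 292153 DpnII fragments of the chromosome more than 10 kb from the bait were used, of which 7284 lay within 1.5 Mb (near) and 284869 beyond (far). A fragment with at least 10 reads was called contacted. The thymocyte library had 10003 contacted fragments, and the muscle libraries had 7008, 2299, 3502 and 1566, in the order WT replicate 1, WT replicate 2, GRko replicate 1 and GRko replicate 2, which is kept throughout. Reads on chromosome 13 ran from 1317351 in GRko replicate 2 to 8993436 in thymocytes. Because the thymocyte library was the deepest, each result is also given for the 1566 fragments with the most reads in every library, called top-read fragments.

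RefSeq promoters (GRCm38.p6, from 250 bases before to 50 after a start) are shown for the baited gene and for a gene on each side whose surroundings are described further on. DpnII cuts at GATC, shown in capitals, and the sites set which fragments can be read. All sequences run 5′ to 3′ on the strand of the gene. GATC, which reads the same on both strands, occurs in 48.0% of the 32851 promoters of this length.
Pik3r1, promoter beside the bait, chr13:101768168-101768467, minus strand: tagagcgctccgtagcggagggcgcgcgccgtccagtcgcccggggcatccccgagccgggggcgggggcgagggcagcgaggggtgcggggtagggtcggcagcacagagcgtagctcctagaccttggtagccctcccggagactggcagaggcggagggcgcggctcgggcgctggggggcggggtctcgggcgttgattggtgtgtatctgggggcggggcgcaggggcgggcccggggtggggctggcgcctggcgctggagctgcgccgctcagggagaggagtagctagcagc
Pik3r1, internal promoter, chr13:101692581-101692880, minus strand: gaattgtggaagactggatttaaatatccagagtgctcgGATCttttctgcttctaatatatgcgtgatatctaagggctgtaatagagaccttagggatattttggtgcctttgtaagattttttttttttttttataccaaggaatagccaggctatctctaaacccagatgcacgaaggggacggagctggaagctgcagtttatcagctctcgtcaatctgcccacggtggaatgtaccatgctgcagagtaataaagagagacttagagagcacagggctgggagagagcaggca
Ccnb1, chr13:100786437-100786736, minus strand: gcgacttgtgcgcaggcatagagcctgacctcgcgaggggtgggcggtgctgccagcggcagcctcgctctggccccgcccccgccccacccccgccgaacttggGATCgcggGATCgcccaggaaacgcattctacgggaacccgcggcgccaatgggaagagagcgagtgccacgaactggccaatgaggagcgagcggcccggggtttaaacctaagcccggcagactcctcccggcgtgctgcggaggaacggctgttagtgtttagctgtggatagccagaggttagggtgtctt
Cd180, chr13:102693297-102693596, plus strand: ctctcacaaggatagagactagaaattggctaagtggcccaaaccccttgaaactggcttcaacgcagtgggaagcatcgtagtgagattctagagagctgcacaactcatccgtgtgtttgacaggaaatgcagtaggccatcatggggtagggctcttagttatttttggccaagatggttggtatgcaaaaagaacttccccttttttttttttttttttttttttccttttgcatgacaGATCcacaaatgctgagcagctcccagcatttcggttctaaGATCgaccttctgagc
The promoter beside the bait holds no DpnII site, the internal Pik3r1 promoter holds 1, and the Ccnb1 and Cd180 promoters hold 2 each. The 45 bp fragment between the 2 sites of the Cd180 promoter had 25 reads in thymocytes and 23 in GRko replicate 1, and none in the other muscle libraries. The 12 bp fragment between the 2 sites of the Ccnb1 promoter had no reads in any library.

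Near contacts fell on different sides of the bait in the thymocyte and the muscle libraries. In thymocytes the near contacted fragments were spread about evenly over both sides, with 48.7% of them at higher coordinates than the bait (47.1 to 50.4%, a 95% Wilson interval for counting error only). In the muscle libraries the share on that side was 64.6%, 72.2%, 66.7% and 67.5%, with a mean of 67.8% ± 3.19 (SD, n = 4). The thymocyte value thus lay 19.0 percentage points below the muscle mean and below every muscle library. The fragments themselves were spread about evenly too. The lower and the higher side held 1013 and 975 from 100 to 500 kb, and 2508 and 2379 from 500 kb to 1.5 Mb. The thymocyte library, the deepest, contacted 49.5% of all near fragments, against 36.7%, 16.8%, 23.7% and 9.86% in muscle. The deepest muscle library, WT replicate 1, was also the closest to thymocytes in share on the higher side. The part that depth plays was not tested. Among top-read fragments the shares on the higher side were 47.8% in thymocytes and 69.5% ± 2.32 (SD, n = 4) in muscle, and the groups again did not overlap. In libraries with reads of 29 nt only, thymocytes against WT and GRko replicate 1, the difference was -16.9 percentage points. With 1 library against 4, a two-sided exact permutation test over libraries cannot go below p = 0.2. It gave 0.2 here, or 0.3 after Benjamini-Hochberg adjustment over the 3 shares tested. The thymocyte library has no replicate, so its own spread is unknown.

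**Figure D1:**
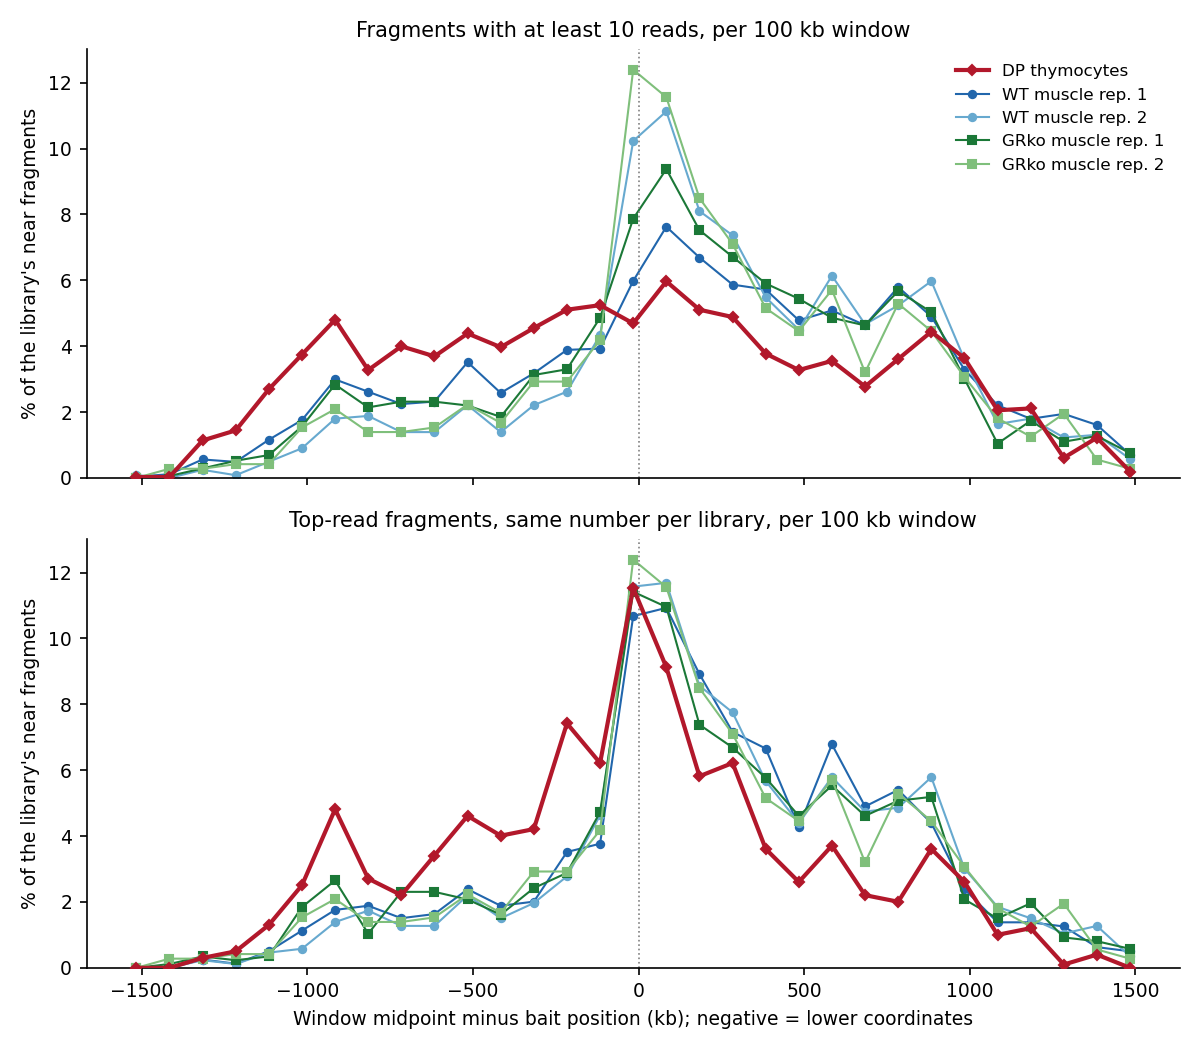
Percent of each library's near fragments per 100 kb window (vertical axis) against the distance of the window's midpoint from the bait in kb (horizontal axis), 1 line per library, for fragments with at least 10 reads (top) and for top-read fragments (bottom). The thymocyte line lies above all muscle lines over most of the lower-coordinate side and below them over much of the higher-coordinate side before Cd180.

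Resolved into 100 kb windows, the thymocyte excess covered almost the whole lower-coordinate side and the deficit much of the higher-coordinate side. Contacted fragments per window were tested with edgeR's quasi-likelihood test against all near contacted fragments of a library, so a rise in some windows must be offset by a fall in others. Of 29 windows tested, 21 (72.4%) passed an adjusted p of 0.05, 12 (41.4%) higher and 9 (31.0%) lower in thymocytes. All 12 windows that rose lay on the lower-coordinate side. Of the 9 that fell, 8 lay on the higher-coordinate side and the other was the window of the bait itself. The thymocyte share lay above all 4 muscle libraries in 15 windows (51.7%) and below all of them in 12 (41.4%). Top-read fragments gave 18 calls (62.1%), with 10 windows higher, all on the lower-coordinate side, and 8 lower, all on the higher-coordinate side. There the fitted log2 ratio was above 0 in 14 of 14 windows on the lower-coordinate side, with a median of 0.99, and below 0 in 15 of 15 on the higher-coordinate side, with a median of -0.69.

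The number of calls rested on single libraries. Without GRko replicate 1 it was 10, and without GRko replicate 2 it was 0 in edgeR, with 16 of 29 windows at an unadjusted p under 0.05. The libraries with 29 nt reads alone gave 9 calls by edgeR, and DESeq2 on all libraries gave 13. Among top-read fragments the count stayed between 16 and 18 with each muscle library left out, while the 29 nt libraries alone gave 8 and DESeq2 gave 0, with 7 windows at an unadjusted p under 0.05.

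**Figure D2:**
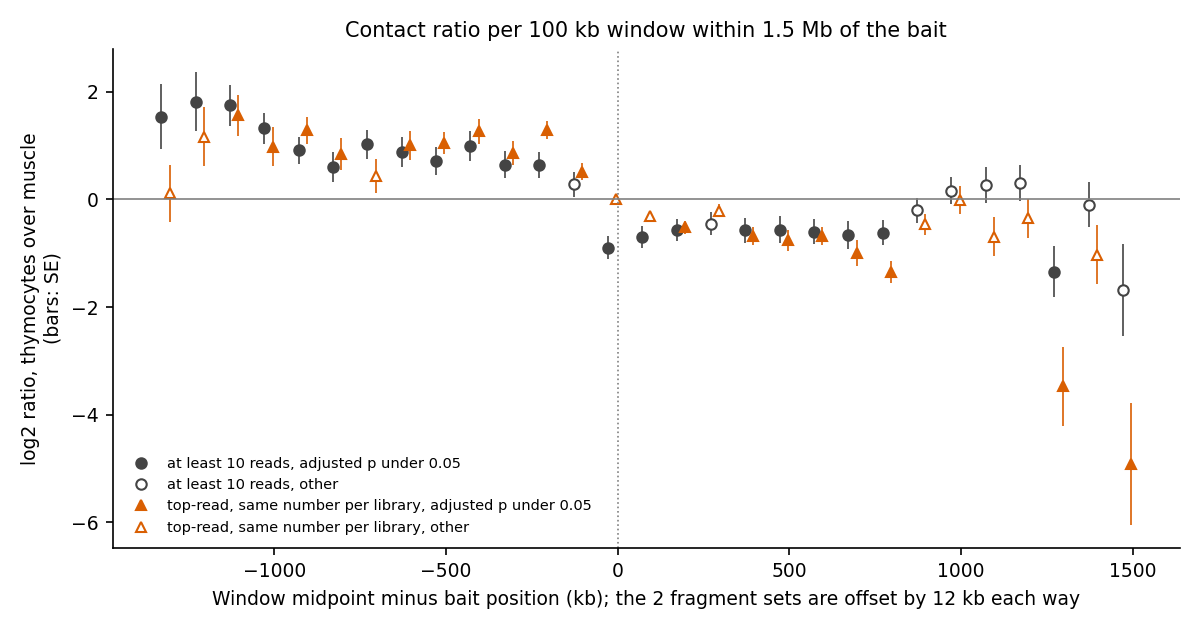
Fitted log2 ratio of thymocytes over muscle per 100 kb window, with its standard error as bars, against the distance of the window's midpoint from the bait in kb, for fragments with at least 10 reads (circles) and top-read fragments (triangles), filled where edgeR's adjusted p was under 0.05. The bars derive from the F statistic, and those of the triangles can understate the uncertainty. Ratios lie above 0 on the lower-coordinate side, except the circle of the bait's own window, and mostly below 0 on the higher-coordinate side; the lowest triangle is a window where thymocytes had 0 top-read fragments, so its position is not a measured size.

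The segment from the 1.5 Mb limit to the end of Slc30a5 (chr13:100266365-100833480), on the lower-coordinate side, held the largest relative excess in thymocytes among the segments compared. It takes in a cluster of housekeeping and cell-division genes, among them Gtf2h2 and Cdk7 of the transcription factor TFIIH, the cyclin gene Ccnb1, the checkpoint gene Rad17, the centromere gene Cenph and the zinc transporter gene Slc30a5. Of the near contacted fragments 10.7% lay in this segment in thymocytes, against 4.82%, 2.21%, 3.70% and 3.34% in muscle (mean 3.52% ± 1.08, SD, n = 4), a ratio of 3.05. The thymocyte value lay above all muscle libraries. In top-read fragments the shares were 6.42% and 2.73% ± 0.772 (SD, n = 4), a ratio of 2.35, again without overlap. The boundaries of this and the following segments were set after the data had been seen, and their shares are given without a test.

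Within the cluster the window with Marveld2, Rad17, Ak6, Taf9 and Ccdc125 (chr13:100600001-100700000) had 97 contacted fragments in thymocytes and 31, 6, 12 and 3 in muscle. As shares of near fragments these were 2.69% in thymocytes and 0.691% ± 0.333 (SD, n = 4) in muscle, with a log2 ratio of 1.75 ± 0.38 (SE) and an adjusted p of 0.000204 in edgeR. The window with Cdk7, Mrps36, Cenph and Ccnb1 (chr13:100700001-100800000) had 135 contacted fragments in thymocytes and 47, 11, 27 and 11 in muscle. Its log2 ratio was 1.32 ± 0.29 (SE, edgeR adjusted p = 0.000204). Both windows were also higher among top-read fragments, at 1.56 ± 0.38 (edgeR adjusted p = 0.0136) and 0.98 ± 0.36 (edgeR adjusted p = 0.0246). Here and below, the SE in top-read windows can understate the uncertainty. The window with Slc30a5 (chr13:100800001-100900000) had 173 contacted fragments in thymocytes against 80, 22, 49 and 15, a share of 4.80% against 2.43% ± 0.575 (SD, n = 4). Its log2 ratio was 0.91 ± 0.25 in contacted fragments (edgeR adjusted p = 0.00229) and 1.28 ± 0.25 in top-read fragments (edgeR adjusted p = 0.000382). At the far end of the cluster the windows with Ocln, a tight-junction gene, and with Naip1 and Gtf2h2 rose at log2 ratios of 1.82 ± 0.55 and 1.54 ± 0.60 in contacted fragments (edgeR adjusted p = 0.00537 and 0.0213). In top-read fragments, where thymocytes had 5 and 3 in these windows, they did not pass (edgeR adjusted p = 0.208 and 0.97).

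Counted over gene bodies, 18 neighbouring genes had been listed and 16 of them reached into the near region. The thymocyte share of near contacted fragments lay above all muscle libraries for 10, below all of them for 1 and within their range for 5, with a median ratio of 2.45 over the 16. All of these genes but Cd180 and Mast4 lie on the lower-coordinate side. There the share lay above all muscle libraries in 13 of 14 windows tested, with a median fitted log2 ratio of 0.89. Over all near windows tested it lay above them in 51.7%. The count for genes was thus no higher than that side as a whole. In top-read fragments 5 genes lay above all muscle libraries and 2 below all of them. Slc30a5 had 56 contacted fragments in thymocytes and 17, 5, 10 and 3 in muscle, and 16 top-read fragments against 4, 3, 4 and 3. That is 3.05 times the mean muscle share in contacted and 3.71 times in top-read fragments, above every muscle library in both sets. Rad17 had 25 contacted fragments against 6, 1, 3 and 0, and Gtf2h2 had 19 against 5, 0, 3 and 0. Ccnb1 had 13 against 2, 2, 1 and 2, and Cdk7 39 against 18, 4, 11 and 1. The thymocyte shares of these 4 genes also lay above all muscle libraries in contacted fragments, but among top-read fragments only Rad17 of the 4 did, with 4 against 1, 1, 0 and 0. Over the 10 kb on either side of the Ccnb1 promoter 33 of 53 fragments were contacted in thymocytes, and 9, 4, 2 and 3 in muscle. Of all near fragments 49.5% were contacted in thymocytes and 36.7%, 16.8%, 23.7% and 9.86% in muscle. In reads beyond 10 kb, the fragments around this promoter took 0.350% in thymocytes and 0.219%, 0.0675%, 0.0273% and 0.0269% in muscle. Naip1 and Naip6, inhibitor-of-apoptosis genes that sense bacterial proteins, lay within the muscle range with at most 10 contacted fragments in any library, and Naip2 and Naip5 lay outside the near region. The Naip genes are near-identical copies, to which short reads are hard to assign.

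The interval between Slc30a5 and Pik3r1, which holds no listed gene, took 36.3% of near contacted fragments in thymocytes. In muscle it took 25.5%, 17.6%, 23.0% and 18.1% (mean 21.1% ± 3.84, SD, n = 4). The thymocyte share was 1.72 times the muscle mean and above every muscle library. In top-read fragments it was 35.8% against 18.5% ± 1.28 (SD, n = 4), or 1.94 times. The window nearest to Pik3r1 that rose in both sets, chr13:101500001-101600000, had 74 top-read fragments in thymocytes and 28, 24, 25 and 21 in muscle. It had the smallest adjusted p among top-read windows, at a log2 ratio of 1.29 ± 0.16 (SE, edgeR adjusted p = 6.19e-06), and 0.63 ± 0.24 in contacted fragments (edgeR adjusted p = 0.0207). The next window toward the gene, chr13:101600001-101700000, did not pass in contacted fragments (log2 ratio 0.28 ± 0.23, edgeR adjusted p = 0.272) and passed in top-read fragments (0.52 ± 0.15, edgeR adjusted p = 0.0351).

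Over the body of Pik3r1 the 2 sets of fragments gave different pictures. Of near contacted fragments 4.22% lay there in thymocytes and 7.67% ± 2.53 (SD, n = 4) in muscle. Yet 98.1% of the 155 fragments of the gene were contacted in thymocytes, the deepest library, against 87.1%, 63.2%, 73.5% and 51.0% in muscle. The part that depth plays in this share was not tested. In top-read fragments the gene held 9.93% of the near total in thymocytes, between the lowest and the highest muscle library (8.04 to 11.0%). The 100 kb window of the bait, called lower in contacted fragments (log2 ratio -0.89 ± 0.21, edgeR adjusted p = 0.000513), was at 0.00 ± 0.08 in top-read fragments (edgeR adjusted p = 0.984). Its direction reversed in 10 of 29 settings, and no direction is given for it. Around the internal promoter, 10 kb to either side, all 40 fragments were contacted in thymocytes and 29, 15, 24 and 15 in muscle. These fragments took 1.63% of the reads beyond 10 kb in thymocytes and 0.752%, 0.846%, 0.812% and 1.68% in muscle, so the thymocyte value lay within the muscle range through GRko replicate 2.

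Of the 5 fragments with the most reads in thymocytes, 4 lay inside Pik3r1 and the other 12.9 kb from the bait on the higher-coordinate side. That last one, at midpoint 101779217, had 51919 reads in thymocytes and 30408, 488, 13205 and 1 in muscle. The fragment at 101753317, inside Pik3r1, was also first by mean share of muscle reads, and was the only one in both groups' lists of 5. It took 0.469% of thymocyte reads and 0.357%, 0.874%, 0.288% and 1.29% of muscle reads, so the groups overlapped. Read counts of single fragments were uneven between replicates. The fragment at 102174944 had 4133 reads in WT replicate 2 and 16451 in GRko replicate 2, but 0 in WT replicate 1, 3 in GRko replicate 1 and 0 in thymocytes.

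**Figure D3:**
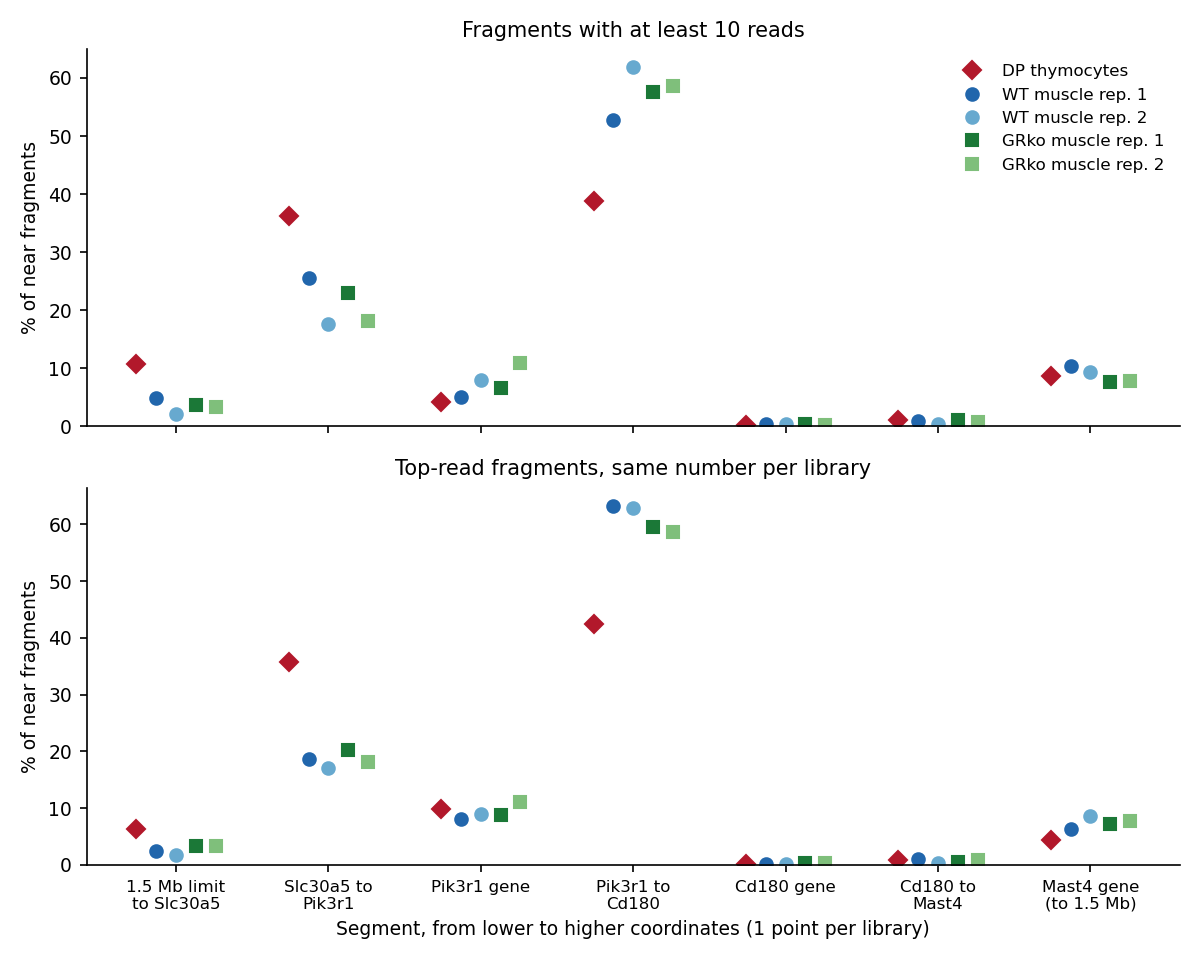
Percent of each library's near fragments (vertical axis) in the segments between named genes, from lower to higher coordinates (horizontal axis), 1 point per library, for fragments with at least 10 reads (top) and top-read fragments (bottom). Thymocytes lie above all muscle libraries in the segment from the 1.5 Mb limit to Slc30a5 and between Slc30a5 and Pik3r1, and below all of them between Pik3r1 and Cd180, in both sets.

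Cd180 encodes a B-cell surface protein related to the Toll-like receptors. On the higher-coordinate side the only segment below every muscle library in both sets of fragments was the interval between Pik3r1 and Cd180. This interval took 38.7% of near contacted fragments in thymocytes and 52.8%, 61.9%, 57.5% and 58.6% in muscle (mean 57.7% ± 3.74, SD, n = 4). The thymocyte share was 0.671 times the muscle mean and below every muscle library. Top-read fragments gave 42.4% against 61.1% ± 2.38 (SD, n = 4), again without overlap. In the window chr13:102500001-102600000, 784 kb from the bait, thymocytes had 20 top-read fragments and muscle 43, 42, 44 and 38. Its log2 ratio of -1.35 ± 0.20 (SE, edgeR adjusted p = 0.000101) had the smallest adjusted p among the windows that fell in top-read fragments, and in contacted fragments it was -0.62 ± 0.24 (edgeR adjusted p = 0.0207). The window next to it, chr13:102400001-102500000, had 22 top-read fragments in thymocytes against 39, 41, 40 and 23, at -0.99 ± 0.24 (edgeR adjusted p = 0.00431). There the lowest muscle library, GRko replicate 2, lay close to thymocytes in number and above them in share. In the 3 windows from chr13:102100001 to 102400000 the log2 ratios were -0.57, -0.56 and -0.60 in contacted and -0.69, -0.76 and -0.68 in top-read fragments, all past the threshold. The first window beyond the bait, chr13:101800001-101900000, was called lower in contacted fragments (-0.70 ± 0.20, edgeR adjusted p = 0.00282) but not in top-read fragments (-0.30 ± 0.08, edgeR adjusted p = 0.0993). The latter SE is narrower than the test result, an unadjusted edgeR p of 0.0651. Of the 243 fragments of this window, 215 were contacted in thymocytes and 204, 136, 162 and 83 in muscle.

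At Cd180 itself no deficit was detected, but top-read fragments showed one again within Mast4. The window with Cd180 (chr13:102700001-102800000) had 131 contacted fragments in thymocytes and 88, 44, 52 and 22 in muscle, at a log2 ratio of 0.16 ± 0.26 (edgeR adjusted p = 0.545). The Cd180 gene itself had 11 contacted fragments in thymocytes against 10, 6, 8 and 2, a share within the muscle range. Around its promoter, 10 kb to either side, 25 of 41 fragments were contacted in thymocytes and 18, 7, 14 and 0 in muscle. These fragments took 0.205% of the reads beyond 10 kb in thymocytes, within the muscle range (0.000341 to 0.302%). Mast4, a large gene of a microtubule-associated kinase that runs past the 1.5 Mb limit, took 8.63% of near contacted fragments in thymocytes and 8.81% ± 1.34 (SD, n = 4) in muscle, within the muscle range. In top-read fragments its share was 4.31% against 6.28%, 8.68%, 7.27% and 7.80%, below every muscle library. The window that fell within Mast4 was chr13:103000001-103100000, with 22 contacted fragments in thymocytes and 52, 15, 19 and 14 in muscle. There the log2 ratio was -1.34 ± 0.47 (edgeR adjusted p = 0.0155), and 1 top-read fragment in thymocytes stood against 10, 9, 8 and 14 in muscle. The last window of the near region, chr13:103200001-103300000, also within Mast4, fell in top-read fragments alone, with 0 in thymocytes against 4, 3, 5 and 2 (edgeR adjusted p = 0.0138, and 0.0679 in contacted fragments).

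How contacts split between near and far depended on which fragments were counted. Of all contacted fragments 36.0% lay within 1.5 Mb in thymocytes and 38.2%, 53.2%, 49.3% and 45.8% in muscle (mean 46.6% ± 6.38, SD, n = 4; two-sided exact permutation p = 0.4, also after adjustment). Among top-read fragments the order was reversed, at 63.7% in thymocytes and 51.8% ± 4.49 (SD, n = 4) in muscle, and it was also reversed in reads, where the difference was 6.33 percentage points. The thymocyte library covered 49.5% of all near fragments with at least 10 reads, and the muscle libraries 36.7%, 16.8%, 23.7% and 9.86%. No direction is given for this share.

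By distance, the thymocyte share of top-read fragments lay above every muscle library in all 4 near zones of the lower-coordinate side. From 10 to 50 kb that side held 3.70% of the top-read fragments in thymocytes and 3.26% ± 0.357 (SD, n = 4) in muscle. From 50 to 100 kb it held 3.07% against 1.82% ± 0.111. From 100 to 500 kb it held 13.1% against 5.16% ± 0.323, and from 500 kb to 1.5 Mb 13.3% against 5.52% ± 1.16. The widest ratio, 2.54, was that from 100 to 500 kb. In contacted fragments the 2 zones nearest to the bait went the other way, at 0.820% against 2.40% ± 1.04 from 10 to 50 kb and 0.930% against 1.48% ± 0.329 from 50 to 100 kb, both below every muscle library. Yet thymocytes contacted 96.5% and 97.9% of the fragments in these 2 zones, more than any muscle library. The part that depth plays in these shares was not tested. In the zones from 100 to 500 kb (6.73% against 5.14% ± 0.467) and from 500 kb to 1.5 Mb (9.99% against 5.88% ± 1.06) thymocytes were above every muscle library in contacted fragments too. On the higher-coordinate side the zones up to 500 kb were above or within the muscle range in top-read fragments, and the zone from 500 kb to 1.5 Mb was below it, at 11.3% against 15.6% ± 1.83, while in contacted fragments every near zone of that side was below all muscle libraries. There too thymocytes contacted most of the fragments nearest to the bait. They contacted 84.5% from 10 to 50 kb and 89.4% from 50 to 100 kb, against at most 81.9% and 83.2% in muscle. The 2 near sides together held more of all top-read fragments in thymocytes than in muscle (63.7% against 51.8%). Of all contacted fragments they held less (36.0% against 46.6%). The split by side was planned as a share of near fragments alone.

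Many top-read fragments were common to thymocytes and muscle. The 4 pairs of thymocytes with a muscle library had 16.7 to 27.8% of their 1566 fragments in common (median 24.7%), and the 6 pairs of muscle libraries 16.1 to 23.8% (median 18.5%). WT replicate 1, WT replicate 2 and GRko replicate 1 each had more in common with thymocytes (27.8%, 22.6% and 26.9%) than with any other muscle library. The pairs share libraries and differ in depth, so these are given as a description. Nearly all shared fragments were near ones, and no pair shared more than 13 far fragments. Of the 105 near fragments that were in the top list of all 4 muscle libraries, 89 (84.8%) were also in the thymocyte list. On the lower-coordinate side these were 33 of 33, and on the higher-coordinate side 56 of 72 (77.8%).

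Beyond 1.5 Mb, contacted fragments were counted per 500 kb window and tested in the same way against all far contacted fragments of a library. Of 214 windows tested, 53 (24.8%) passed an adjusted p of 0.05 in edgeR, 24 (11.2%) higher and 29 (13.6%) lower in thymocytes. In 22 of the 24 and 28 of the 29 the thymocyte share lay apart from all 4 muscle libraries, above them all in the windows that rose and below them all in those that fell. Over all 214 windows tested, it lay above all of them in 22.0% and below all of them in 26.2%. Contacted fragments per window ran from 20 to 123 in thymocytes in the windows that rose and from 0 to 88 in those that fell. Median log2 ratios were 1.02 and -2.08. The count of calls rested on the WT libraries, being 20 without WT replicate 1 and 28 without WT replicate 2, and it was 24 in the 29 nt libraries alone. DESeq2 called 0 windows, with 21 at an unadjusted p under 0.05. Among top-read fragments 134 windows could be tested and edgeR called 0, with 17 at an unadjusted p under 0.05, and DESeq2 also called 0, with 2 at that level. All 18 higher and all 19 lower windows that could be tested there kept their direction, as did 65 of 97 windows not called. Top-read fragments are part of the contacted fragments on which these windows were picked, so this is no separate check. Over the alternative settings in which it could be fitted, the direction was the same throughout for 51 of the 53 windows. These settings, and the counts of windows apart from all muscle libraries, reuse the same libraries and the single thymocyte library. They do not test the calls anew.

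**Figure D4:**
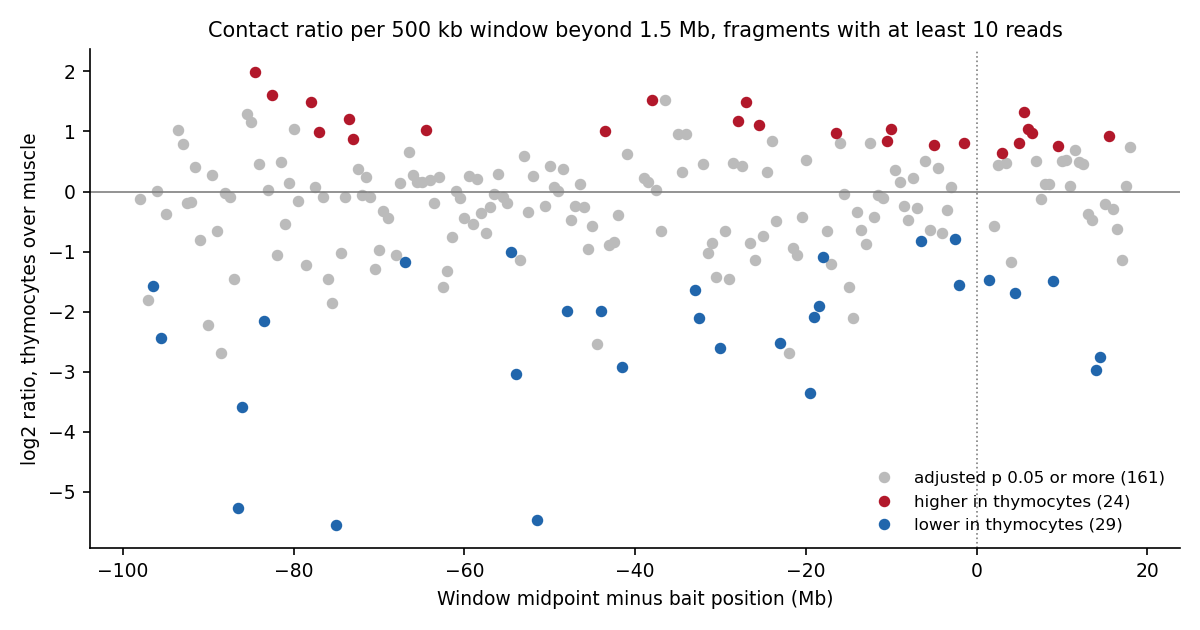
Fitted log2 ratio of thymocytes over muscle per 500 kb window beyond 1.5 Mb (vertical axis) against the distance of its midpoint from the bait in Mb (horizontal axis), for fragments with at least 10 reads. Of 214 windows, 24 were higher (red) and 29 lower (blue) in thymocytes, spread over the whole chromosome; the 3 points under -5 are windows with 0 contacted fragments in thymocytes, so their position is not a measured size.

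The windows that fell held fewer gene midpoints than those that rose, with overlap. A gene was counted in the window that holds its midpoint. A window called gene-free or without a gene can thus still lie inside a long gene. The near window chr13:103100001-103200000, inside Mast4, is such a case. Of the 29 windows that fell in thymocytes, 13 held no protein-coding gene, against 1 of the 24 that rose, while 7 of those that fell held at least 2 genes and 7 of those that rose held at most 1. Among the 41 tested windows without a protein-coding gene the median log2 ratio was -1.42, with 13 lower and 1 higher. In the 45 windows with 1 gene it was -0.32, with 9 lower and 6 higher. The 87 windows with 2 to 5 genes had a median of 0.01, with 5 lower and 12 higher, and the 41 with 6 or more a median of 0.14, with 2 lower and 5 higher. Median ratios rose in the same order in top-read fragments, from -2.07 without a gene to 0.23 with 6 or more. Over all 214 windows the median was -0.16. The grouping by gene number was chosen after the data had been seen.

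Counted by fragment, 54.0% of far contacted fragments lay inside protein-coding genes in thymocytes (52.8 to 55.2%, 95% Wilson interval). For muscle the values were 45.5%, 49.4%, 46.7% and 42.7% (mean 46.1% ± 2.78, SD, n = 4), and of all far fragments of the chromosome 33.2%. So far contacts lay inside genes more often than the fragments at large in every library, and the thymocyte library lay above all 4 muscle libraries. In top-read fragments it was 58.7% against 46.5% ± 3.16 (SD, n = 4). Windows without a protein-coding gene took 9.03% of far contacted fragments in thymocytes and 13.8%, 15.4%, 13.8% and 16.0% in muscle, against 20.8% of all far fragments. Windows with 6 or more genes took 24.7% in thymocytes and 21.2% ± 0.415 (SD, n = 4) in muscle. These shares were also added after the data had been seen, and carry no test. Within 1.5 Mb, where 31.3% of fragments lie inside genes, thymocytes (21.1%) lay within the muscle range (17.7 to 21.7%).

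**Figure D5:**
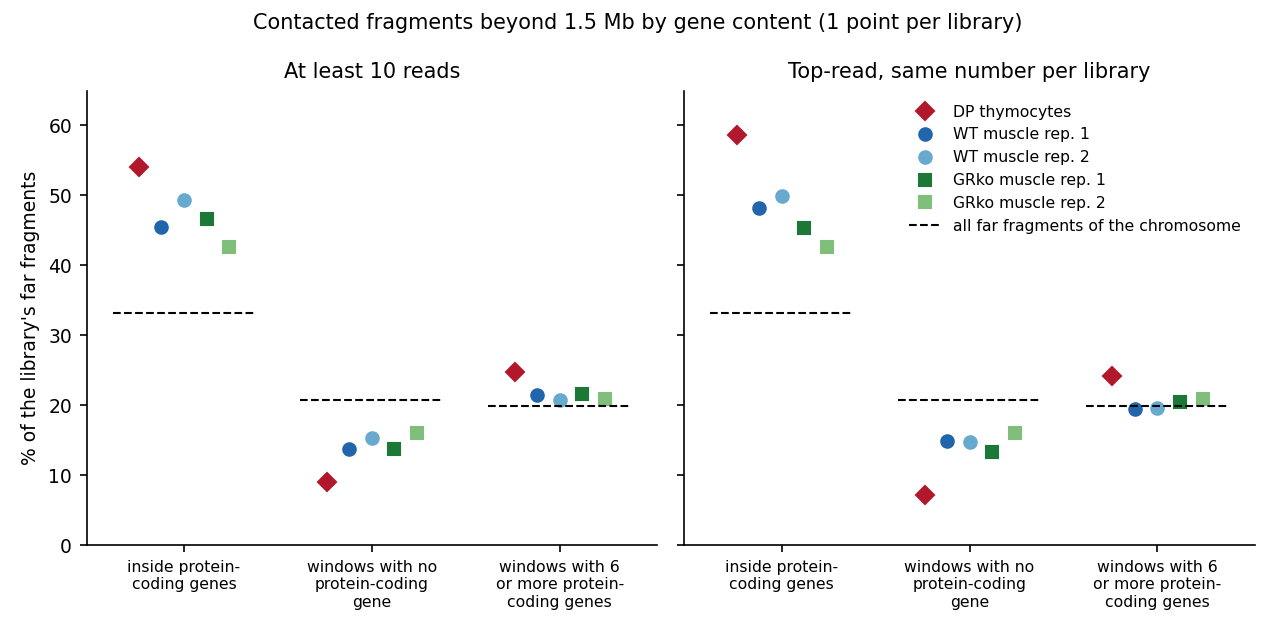
Percent of each library's far fragments (vertical axis) inside protein-coding genes, in 500 kb windows with no protein-coding gene, and in windows with 6 or more, 1 point per library, for fragments with at least 10 reads (left) and top-read fragments (right). Genes were counted in the window that holds their midpoint. Dashes mark the share among all far fragments; thymocytes lie above all muscle libraries inside genes and in windows with 6 or more, and below all of them in windows with none.

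The main histone gene cluster was among the windows that rose. Histone genes supply new chromatin during DNA replication, and 55 of them on the chromosome fell into 3 windows, of which 1 rose, 0 fell and 2 did not pass, beside 11.2% of all far windows that rose. The window that rose, chr13:23500001-24000000, 78.0 Mb from the bait, had 43 contacted fragments in thymocytes and 6, 5, 6 and 2 in muscle. As shares of far fragments these were 0.672% against 0.138%, 0.464%, 0.338% and 0.236%, above every muscle library. Its log2 ratio was 1.49 ± 0.37 (SE, edgeR adjusted p = 0.00152), and 1.92 in top-read fragments. The other histone windows had 25 contacted fragments against 7, 2, 5 and 1 (log2 ratio 1.05, edgeR adjusted p = 0.0759) and 5 against 3, 1, 2 and 1. In top-read fragments the former had 0 in thymocytes against 1, 1, 3 and 1, and was not tested. Histone genes are close copies, to which short reads are hard to assign.

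The window with Ptch1, the receptor of hedgehog ligands, and Ercc6l2 (chr13:63500001-64000000) had 53 contacted fragments in thymocytes and 10, 4, 6 and 3 in muscle. The log2 ratio was 1.52 ± 0.33 (SE), and it shared the smallest adjusted p among the windows that rose, 0.000224 in edgeR, with the gene-free window chr13:107000001-107500000. The latter, 5.48 Mb from the bait, had 91 contacted fragments against 20, 9, 8 and 8, at 1.32 ± 0.29 (SE), and was the only gene-free window among those that rose. Its neighbour with Zswim6 (chr13:107500001-108000000) had 105 against 36, 5, 17 and 6, at 1.05 ± 0.27 (edgeR adjusted p = 0.00281). The largest ratio among the windows that rose was 1.99 ± 0.57 (edgeR adjusted p = 0.00489) at Sugct (chr13:17000001-17500000), where 23 contacted fragments in thymocytes stood against 3, 0, 1 and 3. As a share this was 0.359% against 0.0692%, 0%, 0.0564% and 0.354%, so GRko replicate 2 lay next to thymocytes, and in top-read fragments, with 2 against 1, 0, 0 and 3, the thymocyte share was within the muscle range. The other windows that the naming rule took and that are described here were those with Amph and Stard3nl, with Prl4a1 and Prl5a1 of the prolactin family, and with Erap1, which trims peptides for antigen presentation, and Cast. They had 20 to 28 contacted fragments in thymocytes, at most 9 in any muscle library and log2 ratios of 1.21 to 1.61.

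Of 23 lymphoid genes in 19 windows, 4 windows rose, 0 fell and 15 did not pass, beside 11.2% and 13.6% of all far windows that rose and fell. The window of Cd180 was a near one of 100 kb, scaled to near fragments, unlike the far windows of the other genes. The list had a median log2 ratio of 0.16, which was the value of the Cd180 window. In the 16 windows that could be tested in top-read fragments the median was 0.00. The window of the T-cell receptor gamma constant genes Trgc1 and Trgc4, which is the one with Amph and Stard3nl (chr13:19000001-19500000), had 20 contacted fragments in thymocytes and 4, 0, 2 and 2 in muscle, at 1.61 ± 0.57 (SE, edgeR adjusted p = 0.0299). The window of Sox4 (chr13:28500001-29000000), a transcription factor of early lymphocytes, had 50 against 23, 4, 5 and 2, at 0.88 ± 0.32 (edgeR adjusted p = 0.0301). That of Ly86 (chr13:37000001-37500000), the partner of Cd180 at the cell surface, had 41 against 13, 6, 4 and 2, at 1.03 ± 0.35 (edgeR adjusted p = 0.0243). That of Ripor2 (chr13:24500001-25000000), which restrains RhoA in T cells, had 48 against 16, 4, 7 and 3, at 1.00 ± 0.32 (edgeR adjusted p = 0.0177). In all 4 the thymocyte share lay above every muscle library. The windows of Irf4, a transcription factor of activated lymphocytes, and of Syk and Nfil3 had log2 ratios of -0.09 and 0.01. At Il9, a T-cell cytokine gene, 18 contacted fragments stood against 24, 8, 7 and 5, at -0.95 (edgeR adjusted p = 0.0524). The granzyme genes Gzma and Gzmk had 79 against 33, 10, 14 and 4, at 0.70 (edgeR adjusted p = 0.0572).

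Of 9 muscle genes in 8 windows, 1 window rose, 1 fell and 6 did not pass, beside the same 11.2% and 13.6% of all far windows. The median log2 ratio was 0.02, and -0.65 in the 5 windows that could be tested in top-read fragments, of which 1 was above 0. The window that rose was that of Cast, the calpain inhibitor gene (chr13:74500001-75000000), with 23 contacted fragments in thymocytes and 7, 2, 0 and 1 in muscle, at 1.497 ± 0.51 (SE, edgeR adjusted p = 0.0243). The window that fell was that of Mef2c, a transcription factor of muscle differentiation that is also used in lymphocytes (chr13:83500001-84000000). It had 16 contacted fragments in thymocytes and 21, 4, 11 and 7 in muscle, and its log2 ratio was -1.09 ± 0.39 (SE, edgeR adjusted p = 0.0315). The 3 gene-free windows before it fell further. They had 2 contacted fragments against 13, 4, 8 and 4 (chr13:82000001-82500000), 9 against 23, 6, 11 and 9, and 14 against 35, 5, 21 and 6. The latter 2 had log2 ratios of -2.08 ± 0.43 (edgeR adjusted p = 0.000146) and -1.91 ± 0.37 (edgeR adjusted p = 2.17e-05). In the first of the 3 the share was 0.0784 times the muscle mean (95% counting interval of the thymocyte count, 0.0095 to 0.283; edgeR adjusted p = 0.000158). The windows of Ryr2, the calcium release channel of heart muscle, and of Actn2, a Z-disc protein gene, had 2 against 9, 1, 1 and 2 and 32 against 15, 6, 8 and 4, and did not pass.

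The smallest adjusted p among all far windows was that of Gas1, a cell-surface gene of hedgehog signalling (chr13:60000001-60500000). It had 5 contacted fragments in thymocytes and 28, 8, 7 and 7 in muscle, shares of 0.0781% against 0.646%, 0.743%, 0.395% and 0.825%. Every muscle library lay above thymocytes, at a log2 ratio of -2.93 ± 0.49 (SE, edgeR adjusted p = 1.76e-06). The naming rule also took 3 windows with a single transcription factor gene. The Isl1 window (chr13:116000001-116500000) had 2 contacted fragments against 8, 1, 5 and 5, or 0.109 times the muscle mean (95% counting interval 0.0132 to 0.393). That of Irx1 (chr13:71500001-72000000) had 2 against 11, 3, 2 and 1, or 0.164 times (0.0198 to 0.592), and that of Gli3 (chr13:15500001-16000000) 1 against 12, 1, 5 and 1, or 0.0812 times (0.00206 to 0.452). In 3 windows thymocytes had 0 contacted fragments, which allows up to 3. Set against that floor, the thymocyte share at Hdgfl1 (chr13:26500001-27000000, with 9, 2, 1 and 4 in muscle) was at least 4.91-fold below the muscle mean. It was at least 4.31-fold below at Fbxw17 and Nutm2 (chr13:50000001-50500000, with 7, 2, 4 and 2). In the gene-free window chr13:15000001-15500000 (7, 3, 2 and 1) it was at least 3.58-fold below. These folds leave out the spread among muscle libraries, whose shares at Hdgfl1 ran from 0.0564% to 0.472%. The remaining gene-free windows of the naming rule, chr13:78500001-79000000 and chr13:115500001-116000000, had 2 contacted fragments each in thymocytes and 2 to 10 in the muscle libraries. Close to the near region, the window with Cartpt and Mccc2 (chr13:99500001-100000000) had 38 against 80, 22, 28 and 12, at -1.56 ± 0.30 (edgeR adjusted p = 2.17e-05).

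In every library most far contacted fragments lay on the lower-coordinate side. Among far contacts, thymocytes had a larger share than muscle toward the higher-coordinate end of the chromosome, the reverse of the near ones. Thymocytes had 31.7% of their far contacted fragments there (30.5 to 32.8%, 95% Wilson interval), and the muscle libraries had 26.0%, 28.3%, 28.8% and 28.9% (mean 28.0% ± 1.37, SD, n = 4). The thymocyte value lay above all 4 muscle libraries, as it did in top-read fragments, at 33.7% against 28.7% ± 1.02 (SD, n = 4). The two-sided exact permutation test gave p = 0.2, the smallest it can give, and 0.3 after adjustment over the 3 shares. The difference is relative to far fragments. As shares of all top-read fragments, the higher-coordinate zones from 1.5 to 5 Mb and from 10 to 30 Mb were below every muscle library in thymocytes. That from 5 to 10 Mb was within the muscle range. In contacted fragments these zones were above every muscle library.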

How the data were processed

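The data were 4C-seq counts of a single bait from 5 libraries, digested with DpnII and then Csp6I, per the labels' protocols. The values the authors deposited are unnormalized read counts for each DpnII fragment of chromosome 13, and line 1 gives the bait position, per the file headers. Column 1 is the fragment's midpoint: all 344 adjacent GATC pairs found in RefSeq promoters had a listed position within 0.5 bp of their midpoint. The submitters' processing notes name bcl2fastq, Bowtie 1.0.0 and mm10; the sources used here do not give how reads were assigned to fragments. Per the labels, 50 nt reads kept 29 nt once the bait was trimmed in thymocytes and in both replicates 1, and 23 nt in both replicates 2. Without molecular identifiers PCR copies cannot be told from separate ligation products, so contacted fragments rather than reads were counted, and intervals cover counting error only.

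Fragments within 10 kb of the bait were left out. Contacted fragments (at least 10 reads) were counted in 100 kb windows within 1.5 Mb and 500 kb windows beyond. Windows with at least 10 such fragments over all libraries entered edgeR 4.0.16's quasi-likelihood test (R 4.3.3), thymocytes against all 4 muscle libraries, with Benjamini-Hochberg adjustment at 0.05. The library size was the number of such fragments in the windows of the same region. The fit gives the lone thymocyte library the spread seen among muscle libraries, and p-values measure the spread between these libraries. Adjusted p-values are from edgeR unless stated. Standard errors (SE) of log2 ratios were derived from the test's F statistic. In top-read windows they can be narrower than the p-values and understate the uncertainty. Top-read fragments are the 1566 with the most reads, the number that GRko replicate 2 has with at least 10 reads. The lowest count among them was 1311 reads in thymocytes and 879, 53, 192 and 10 in muscle. Shares were compared by exact two-sided permutation over libraries.

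Named windows were up to 10 in each direction with the largest log2 ratio among those past the threshold with the thymocyte share apart from all muscle libraries, with up to 5 protein-coding genes each, beside the listed genes and the 5 leading fragments of each group. Some windows that the rule names are not reported here. Mef2c's neighbouring windows, and those of Cartpt and of the first windows beside Pik3r1, were named after their values were seen. The members and lists were chosen with earlier results of these data known. Gene spans and promoters came from RefSeq (GRCm38.p6, the coordinates of mm10). Each gene was assigned to the window that holds its midpoint. Alternatives were other read minimums, reads, other windows, TMM, DESeq2 1.42.0, no filter, 25 kb left out, each muscle library left out, subsets of libraries, genotype as a term and the replicate number as a block. Alternatives on top-read windows and gene-span shares were added after seeing the data.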

Additional observations from a re-analysis of the deposited data

Results flagged for a closer look

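In 5 windows a single muscle library stood apart from the other 3 by Dixon's test, among 77 sets of muscle values tested. Chance flags about 1 in 20. As shares of near fragments, WT replicate 1 was at 0.561% in chr13:100400001-100500000 (Naip1, Gtf2h2), with the others at 0.245 to 0.289% and thymocytes at 1.14%. WT replicate 1 was also at 3.51% in chr13:101200001-101300000, with the others at 2.20 to 2.23% and thymocytes at 4.39%. GRko replicate 2 was at 3.20% in chr13:102400001-102500000, with the others at 4.63 to 4.66% and thymocytes at 2.78%, and at 1.25% in chr13:102900001-103000000, with the others at 1.74 to 1.80% and thymocytes at 2.11%. As a share of far fragments, WT replicate 2 was at 0.557% in chr13:115500001-116000000, with the others at 0.225 to 0.236% and thymocytes at 0.0313%.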

How the results depend on the processing

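The lower share of near fragments on the higher-coordinate side kept its direction in all 12 alternatives, at -22.1 to -16.9 percentage points, and at -20.1 to -17.5 with each muscle library left out. The share within 1.5 Mb reversed in top-read fragments (11.9) and in reads (6.33), against -10.6, with -13.4 to -8.44 with each library left out. The far share on the higher-coordinate side was 5.08 in top-read fragments, 6.45 with at least 1 read and 6.47 in reads, against 3.67 (3.0 to 3.97 with each library left out). Far fragments inside genes moved to 12.2 in top-read fragments from 7.98, and those in windows without a gene to -7.57 in top-read fragments, -6.91 with at least 1 read and -7.13 in reads, from -5.72.

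Near windows called, 21 in contacted fragments, numbered 4 in reads, 0 to 22 with each library left out, 0 with WT muscle only (edgeR, 0 at an unadjusted p under 0.05), 9 with 29 nt libraries, 10 with genotype as a term, 13 by DESeq2, 35 in 50 kb windows and 11 in 200 kb windows. Far windows called, 53, numbered 0 in top-read fragments, 26 with at least 100 reads, 0 in reads (edgeR, 8 at an unadjusted p under 0.05), 20 to 42 with each library left out, 12 with GRko muscle only, 24 with 29 nt libraries, 0 by DESeq2 and 35 in 1 Mb windows. In top-read fragments near calls, 18, numbered 9 with GRko muscle only, 8 with 29 nt libraries and 0 by DESeq2. The causes were not tested.

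With the replicate number, which goes with read length, as a block, 18 near and 28 far windows were called in contacted fragments, and 13 and 0 in top-read fragments. Deviations of same-numbered muscle libraries from their group means correlated at 0.25 over near and -0.03 over far windows, from 2 pairs only. Of the 29 far windows that fell, 12 had at most 3 contacted fragments in thymocytes.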
